A study of Homo sapiens with 33 samples.

Results

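The comparison concerned H9-FOXL2-DDdCas9VP192 cells that were differentiated without induction, on day 12 against day 10. It rests on 6 of the 33 RNA-seq libraries, 3 of the group day 12 CTRL and 3 of the group day 10 CTRL, chosen by their labels and read across all genes. H9 is a human embryonic stem cell line. The cells are a single clone that carries DDdCas9VP192, a catalytically dead Cas9 joined to a transcriptional activator and to a destabilising domain, with guide RNAs that target the promoter of FOXL2. The activator needs doxycycline (DOX) and trimethoprim (TMP). Both CTRL groups carried it but received neither drug, and the induced groups (IND) received both. All cells first went through the same days of activin A, CHIR-99021, dorsomorphin, BMP7 and ROCK inhibitor, and from day 4 the CTRL cells were kept in a base medium without these factors. The 3 libraries of a group are technical replicates, wells of 1 differentiation, so that a p-value here measures how far wells differ and says nothing of other differentiations.

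The protocol aims at the bipotential gonad. This tissue arises where the coelomic epithelium thickens over the intermediate mesoderm, under transcription factors such as GATA4, WT1 and LHX9. Its surface cells are close kin of the mesothelium, and cells that enter it from the surface give rise to the supporting lineage, Sertoli or granulosa cells, and to interstitial cells. Cells that leave the cell cycle lower the genes of DNA replication. The integrated stress response is a programme in which the transcription factor ATF4 raises genes for amino acid synthesis, amino acid import and the loading of transfer RNA.

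The libraries held between 43395080 and 51912815 counts, and 19907 genes passed the filter on low counts. Levels are given as CPM, counts scaled to the size of the library with the TMM method of edgeR. A level of 3 counts, the floor below which nothing is claimed, corresponded to between 0.0565 and 0.0685 CPM. Mitochondrial transcripts took between 2.88% and 3.26% of the counts, and ribosomal protein genes between 6.03% and 6.61%. Every pair of libraries differed beyond the noise of counting, and each was used as 1 sample. FOXL2 had at most 3 counts in the day 10 libraries and at most 7 in the day 12 libraries, and was not tested. WT1 lay between 120.2 and 145 CPM and GATA4 between 309 and 502 CPM over the 6 libraries. POU5F1 and NANOG, markers of pluripotent cells, had at most 15 and 5 counts. SOX2, listed with them as a marker, lay between 35.6 and 56.8 CPM. Day 12 CTRL replicate 1 stood apart from the other libraries of its day, with a value of -42.3 on the second principal component against 1.04 and -3.52. It had the highest levels of the neuronal genes STMN2 and DCX, and the lowest GATA4. Counts that move by over 1.5 times without it are given beside the results.

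Day 12 differed from day 10 by small changes in many genes. With edgeR's quasi-likelihood test and Benjamini-Hochberg adjustment at 0.05, 308 genes (1.55% of those tested) were higher on day 12 and 96 (0.482%) were lower. The medians of the called genes were 0.61 and -0.35 on the log2 scale, against 0.0048 for all genes tested. A change beyond 1 on this scale was found in 61 of the genes called higher and 3 of those called lower. In each of the 404 genes the 3 libraries of day 12 lay on 1 side of the 3 of day 10. This follows largely from the choice of genes by p-value and adds no support to the calls. Of the genes called, 301 and 90 were protein coding. The number of calls depended strongly on the fit, from 6 when all 33 libraries shared 1 estimate of the spread to 1334 with no filter on low counts. It was 885 without day 12 CTRL replicate 1 and 123 without day 12 CTRL replicate 3. A group of 88 genes, 74 higher and 14 lower, was called whichever of the 6 libraries was left out.

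Among protein coding genes with a mean level of at least 2 CPM, the 15 with the largest rises were SUCNR1, HIC1, PTGS1, TMOD1, TM4SF1, GPRC5A, CDCP1, NRN1 and SEZ6L, and CFI, SPARCL1, PHOX2A, LHX9, TH and CHGA, which are described with their lists. HIC1, a zinc finger repressor, had 3.78, 3.72 and 3.27 CPM on day 10 and 11.1, 11.1 and 13.5 CPM on day 12. The groups were far apart, with a 3.29-fold difference (log2 fold change 1.72 ± 0.14 SE, adjusted p = 0.000102). HIC1 (chromosome 17, 2054154 to 2063241 of GRCh38, plus strand) overlaps SMG6 on the opposite strand, and the libraries did not record strand. Other named genes have such an overlap too, among them TMOD1 with TSTD2, PHOX2A with INPPL1 and BGN with HAUS7. PTGS1, which encodes cyclooxygenase 1, went from 10.3, 8.86 and 7.48 CPM to 23.3, 29.3 and 23.9 CPM (log2 fold change 1.52 ± 0.13, adjusted p = 0.000174). TMOD1, which caps the slow end of actin filaments, went from 1.105, 1.05 and 1.52 CPM to 3.46, 3.13 and 3.72 CPM (1.48 ± 0.21, adjusted p = 0.00336). HIC1, PTGS1 and TMOD1 were the named genes called under all 13 alternatives. SUCNR1, the receptor for succinate, had the largest fold change of the 15. Its levels were 0.562, 0.525 and 0.758 CPM on day 10 and 1.73, 4.47 and 4.92 CPM on day 12, a wide spread on the later day (2.57 ± 0.40, adjusted p = 0.0156). The call was kept in 3 of the 6 fits that leave out 1 library. The membrane protein genes TM4SF1, CDCP1 and GPRC5A rose by 1.44, 1.32 and 1.403 on the log2 scale, with levels on day 12 of 16.0 to 29.7, 5.93 to 9.77 and 2.32 to 4.00 CPM. Of the 6 fits that leave out 1 library, TM4SF1 and CDCP1 were called in 2 and GPRC5A in 5.

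The clearest group among the genes that fell was that of amino acid supply and the integrated stress response. Of 21 listed genes, all tested, 10 fell and none rose, where 0.482% of all genes were called lower. That share is not matched for level. The 96 genes called lower had a median of 51.6 CPM, against 12.7 CPM for all genes tested. The sign was negative in 19 of 21, and the median was -0.26. The genes that fell cover the synthesis of serine and of the one-carbon units made from it, the import of amino acids and the breakdown of glutathione.

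PSAT1, an enzyme of serine synthesis on chromosome 9 (78297143 to 78330093, plus strand), had 202, 229 and 221 CPM on day 10 and 143, 155 and 157 CPM on day 12. All day 12 libraries lay below all day 10 libraries, and the level fell by 30.4% (log2 fold change -0.52 ± 0.06, adjusted p = 0.00122). PHGDH, the first enzyme of the same pathway, went from 610, 654 and 624 CPM to 502, 490 and 509 CPM (-0.34 ± 0.06, adjusted p = 0.00866). The folate enzymes of the mitochondrion SHMT2 and MTHFD2 had smaller changes of -0.23 and -0.27, with adjusted p of 0.0464 and 0.0478. SHMT2 was called in none of the fits that leave out 1 library and MTHFD2 in 1 of 6.

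Among the transporters, SLC7A11, the cystine importer, had 63.0, 58.2 and 59.8 CPM on day 10 and 30.2, 41.4 and 39.3 CPM on day 12 (-0.71 ± 0.10, adjusted p = 0.00634). It overlaps an antisense gene. SLC7A5, the transporter of large neutral amino acids, went from 579, 499 and 543 CPM to 319, 370 and 417 CPM (-0.56 ± 0.09, adjusted p = 0.0131). Its heavy chain SLC3A2 went from 304, 291 and 308 CPM to 219, 240 and 256 CPM (-0.34 ± 0.06, adjusted p = 0.0157). In these 3 transporters day 12 CTRL replicate 1 had the lowest level. CHAC1, which breaks down glutathione, went from 18.7, 19.3 and 16.96 CPM to 10.3, 10.8 and 13.6 CPM (-0.67 ± 0.11, adjusted p = 0.00866). SESN2, a leucine sensor, had a change of -0.32 (adjusted p = 0.0339). The regulators of the programme were not called. ATF4 had 343, 384 and 371 CPM on day 10 and 324, 327 and 358 CPM on day 12, and DDIT3 and TRIB3 had log2 fold changes of -0.12 and -0.26. Without day 12 CTRL replicate 1, 8 of the 21 genes were called lower, and over the fits that leave out 1 library the count was between 2 and 8.

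A pair of lists that widen this group was drawn up after the values were seen. They share members with the list above, so that a gene can be counted more than once. Over the 3 lists, 15 different genes were called lower. Of the 20 aminoacyl-tRNA synthetases of the cytosol, the enzymes that load transfer RNA, 4 fell (GARS, MARS, IARS and CARS), none rose, and 17 had a negative sign, with a median of -0.14. Over the fits that leave out 1 library, between 0 and 5 of them were called lower. MARS had 191, 195 and 186 CPM on day 10 and 153, 147 and 164 CPM on day 12 (-0.31 ± 0.06, adjusted p = 0.0186). MARS overlaps DDIT3 on the opposite strand. Of the 16 amino acid transporters, 5 fell and 1 rose, and between 1 and 5 were called lower with 1 library left out. Besides those above, the cationic amino acid transporters SLC7A1 and SLC7A3 fell by 0.30 and 0.36 on the log2 scale. The gene that rose was SLC7A14, from 0.201, 0.297 and 0.219 CPM to 0.885, 0.594 and 0.838 CPM, a call that was kept in none of the fits that leave out 1 library.

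The sequences below are shown because 6 of the 12 genes called lower in these 3 lists that have an entry among the RefSeq promoters of GRCh38.p14 hold the amino acid response element, the composite site known to bind ATF4. The window runs from 250 bases before to 50 bases after the annotated start. The element was searched as TGATGNAA on both strands, and reads TTNCATCA where it lies on the strand opposite to the gene. It occurs in 3.62% of all 35116 promoters of this length and in 1.74% of the 12675 that belong to genes tested here. Among the 31 members of these lists with an entry that were not called lower, 6 hold it, AARS, ASNS, ATF3, NARS, SLC38A1 and TARS. A match of letters is a description and not a measured binding site. Each line gives 30 bases, 5′ to 3′ on the strand of the gene, with the element in capitals.
CHAC1, chr15:40953251-40953280, plus strand: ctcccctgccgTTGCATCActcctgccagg
IARS, chr9:92293692-92293721, minus strand: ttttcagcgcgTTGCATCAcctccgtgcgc
MARS, chr12:57488053-57488082, plus strand: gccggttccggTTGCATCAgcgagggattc
CARS, chr11:3057407-3057436, minus strand: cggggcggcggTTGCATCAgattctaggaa
SLC3A2, chr11:62881719-62881748, plus strand: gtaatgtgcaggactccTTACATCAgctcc
SLC7A1, chr13:29595663-29595692, minus strand: gggcgcactgcTGATGAAAcctggcgccgg
The first 4 share the same 8 bases, on the strand opposite to the gene. In IARS, MARS and CARS they begin 13, 4 and 2 bases before the start, and in CHAC1 209 bases before it. In SLC3A2 and SLC7A1 the element begins 37 and 7 bases after the start.

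**Figure D1:**
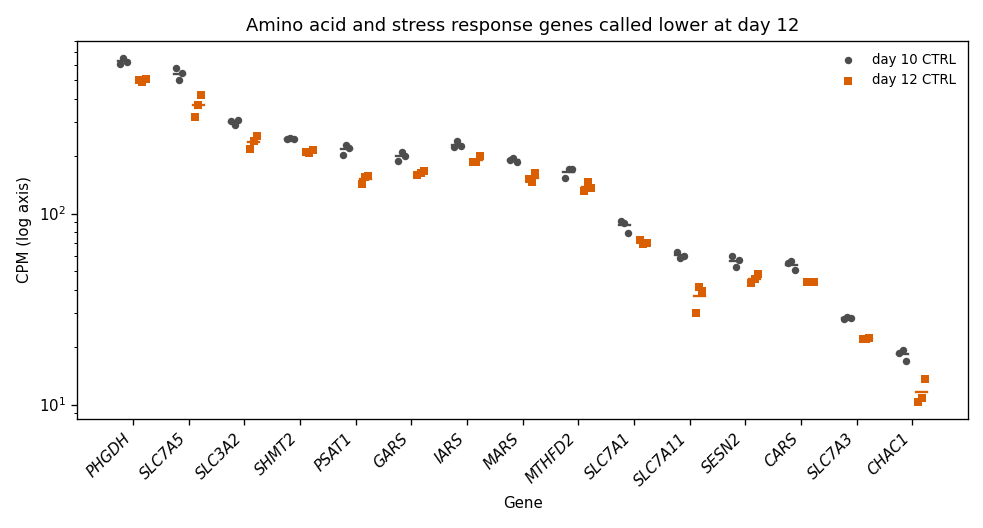
CPM (log axis) of 15 genes of amino acid synthesis, import and transfer RNA loading that were called lower, in each of the 3 day 10 CTRL libraries (grey circles) and the 3 day 12 CTRL libraries (orange squares), with bars for the means. In each of them the day 12 libraries lie below the day 10 libraries, as for PHGDH (490 to 509 CPM on day 12) and CHAC1 (10.3 to 13.6 CPM on day 12).

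Several genes of the cell cycle fell, by small amounts. Of 27 genes of DNA replication, 5 fell and none rose, and the sign was negative in 26, with a median of -0.24. Without day 12 CTRL replicate 1, 13 of the 27 were called lower, and with other libraries left out the count was as low as 1. MCM3, a subunit of the replicative helicase, went from 184, 181 and 171 CPM to 153, 137 and 148 CPM (-0.29 ± 0.06, adjusted p = 0.0283). PCNA, the sliding clamp of the polymerases, went from 110.5, 124 and 118 CPM to 101, 94.9 and 91.1 CPM (-0.30 ± 0.07, adjusted p = 0.0313). CHAF1B, a chaperone of new histones, and GINS1, a further part of the helicase, changed by -0.41 and -0.29. The calls of MCM3, PCNA and CHAF1B were each kept in 7 of the 13 alternatives, and that of GINS1 in 5. Of 25 genes of mitosis, BUB1B of the spindle checkpoint fell from 86.9, 87.5 and 81.5 CPM to 72.7, 71.8 and 70.0 CPM, and 24 had a negative sign. The count was 3 without day 12 CTRL replicate 1 and as low as 0 with another library left out. The call of BUB1B was kept in 7 of the 13 alternatives.

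Of the 4 DNA replication genes called lower that have a promoter entry, MCM3 and PCNA hold the E2F motif TTTCCCGC, which is GCGGGAAA on the opposite strand. E2F factors are the known activators of replication genes. The motif was found in 1.63% of all promoters and 2.45% of those of genes tested. It was also found in 6 of the 19 replication genes with an entry that were not called lower. The 30 bases around it are given with the motif in capitals.
MCM3, chr6:52284898-52284927, minus strand: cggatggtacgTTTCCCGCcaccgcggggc
PCNA, chr20:5126663-5126692, minus strand: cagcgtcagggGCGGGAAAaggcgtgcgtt
Among 15 cell cycle inhibitors and D-type cyclins, CDKN2A and CCND1 rose and none fell. CDKN2A, which encodes the inhibitor p16, had 3.07, 3.43 and 3.09 CPM on day 10 and 4.50, 5.00 and 6.53 CPM on day 12 (0.73 ± 0.17, adjusted p = 0.0429). CCND1, a cyclin that drives entry into the cycle, had 65.6, 59.2 and 76.3 CPM on day 10 and 87.8, 91.0 and 96.8 CPM on day 12 (0.45 ± 0.08, adjusted p = 0.0186). Both calls were lost in most of the fits that leave out 1 library, since CDKN2A was kept in 1 and CCND1 in 2 of 6. In this list 4 genes were called higher and 1 lower without day 12 CTRL replicate 1. Of 11 SR proteins, a family of splicing factors listed after the values were seen, SRSF1, SRSF6 and SRSF7 fell by 0.34, 0.29 and 0.31 on the log2 scale. With 1 library left out, between 0 and 4 of the SR proteins were called lower.

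MEOX1 and HAND1, regulators of mesoderm development, were among the genes that fell. MEOX1, a homeobox gene of the paraxial mesoderm on chromosome 17 (43640388 to 43661954, minus strand), had 25.1, 22.2 and 23.2 CPM on day 10 and 11.6, 12.6 and 11.3 CPM on day 12. Its level fell by 49.8% (log2 fold change -0.99 ± 0.09, adjusted p = 0.000174). HAND1, a factor of lateral and extraembryonic mesoderm and of the heart, went from 128, 131 and 137 CPM to 94.7, 93.0 and 82.7 CPM (-0.55 ± 0.07, adjusted p = 0.00115). TNNT2, the troponin T of heart muscle, went from 51.9, 53.7 and 50.5 CPM to 38.9, 40.0 and 45 CPM (-0.34 ± 0.07, adjusted p = 0.0249). These were the 2 calls among 15 genes of cardiac and skeletal muscle, whose median was 0.037. Without day 12 CTRL replicate 1, 2 genes of this list were called higher and 3 lower, and the median was 0.189. The call of TNNT2 was kept in 8 of the 13 alternatives. GADD45G, a stress and growth arrest gene, went from 47.5, 51.7 and 45.2 CPM to 31.2, 27.7 and 26.8 CPM (-0.76 ± 0.08, adjusted p = 0.000510). KCNJ3, a potassium channel, went from 45.3, 45.3 and 43.4 CPM to 31.8, 31.4 and 29.6 CPM (-0.54 ± 0.07, adjusted p = 0.00124). MEOX1, HAND1, GADD45G and KCNJ3 were called in all 6 fits that leave out 1 library.

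Other genes with falls had diverse roles or an uncertain identity. TYRP1, a pigment enzyme gene, went from 22.5, 19.4 and 26.0 CPM to 10.8, 14.7 and 12.0 CPM (-0.87). The choline transporter SLC5A7 and the surface sialomucin CD34 changed by -0.68 and -0.80, called in 3 and 2 of the 6 fits that leave out 1 library. PNOC and SLC30A3 changed by -0.91 and -0.89, and their calls were kept in 6 and 5 of the 13 alternatives. U2AF1 showed -1.03, but the assembly holds a near-identical copy of this gene, between which reads can be split, and AKR1B15 (-0.75) has a close paralogue in AKR1B10.

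Several neuronal and sympathetic genes rose. Of 27 neuronal genes, 3 rose, SYT1, CHGA and NEFM, and none fell, and 25 had a positive sign, with a median of 0.60. NEFM, a neurofilament subunit, had 90.1, 107 and 99.3 CPM on day 10 and 147, 143 and 143 CPM on day 12 (0.54 ± 0.07, adjusted p = 0.00122). SYT1, the calcium sensor of synaptic vesicles, went from 16.2, 18.7 and 18.3 CPM to 27.9, 26.4 and 26.2 CPM (0.60 ± 0.08, adjusted p = 0.00336). In both genes the 3 day 12 libraries lay close together. The median of the list rested in part on day 12 CTRL replicate 1 and was 0.244 without it, when 5 genes were called. STMN2 had 169 CPM in that library against 75.1 and 82.6 CPM in the other day 12 libraries, and between 44.1 and 77.0 CPM on day 10. NEUROD1 had 24.6 CPM there against 6.52 and 6.87 CPM, and between 4.75 and 10.5 CPM on day 10. In bulk RNA, more cells of a type and more RNA per cell cannot be told apart.

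A list of 18 sympathetic and catecholamine genes was set up after the values were seen, and 6 of them rose, TH, DBH, PHOX2A, GATA2, RET and CHGA. None fell, and the median was 0.70. TH, the rate-limiting enzyme of catecholamine synthesis, had 2.27, 1.99 and 2.43 CPM on day 10 and 5.57, 5.81 and 6.83 CPM on day 12 (1.44 ± 0.16, adjusted p = 0.00105). DBH, which makes noradrenaline from dopamine, went from 5.90, 5.32 and 5.45 CPM to 9.58, 10.8 and 14.3 CPM (1.05 ± 0.15, adjusted p = 0.00336). PHOX2A, the homeobox factor of autonomic neurons, went from 1.73, 2.83 and 2.31 CPM to 5.59, 6.12 and 9.47 CPM (1.62 ± 0.24, adjusted p = 0.00609). TH, DBH and PHOX2A were called in all 6 fits that leave out 1 library. CHGA, a granule protein of neuroendocrine cells, went from 10.2, 11.8 and 11.9 CPM to 19.6, 28.4 and 33.9 CPM (1.27 ± 0.19, adjusted p = 0.0256). RET, the receptor for GDNF ligands, and GATA2 changed by 1.08 and 1.04. CHGA, RET and GATA2 were called in 2, 1 and 3 of those fits, and between 3 and 10 genes of the list were. Unlike STMN2 and NEUROD1, each of these 6 genes had its lowest day 12 level in replicate 1, and without that library 10 of the 18 were called higher.

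**Figure D2:**
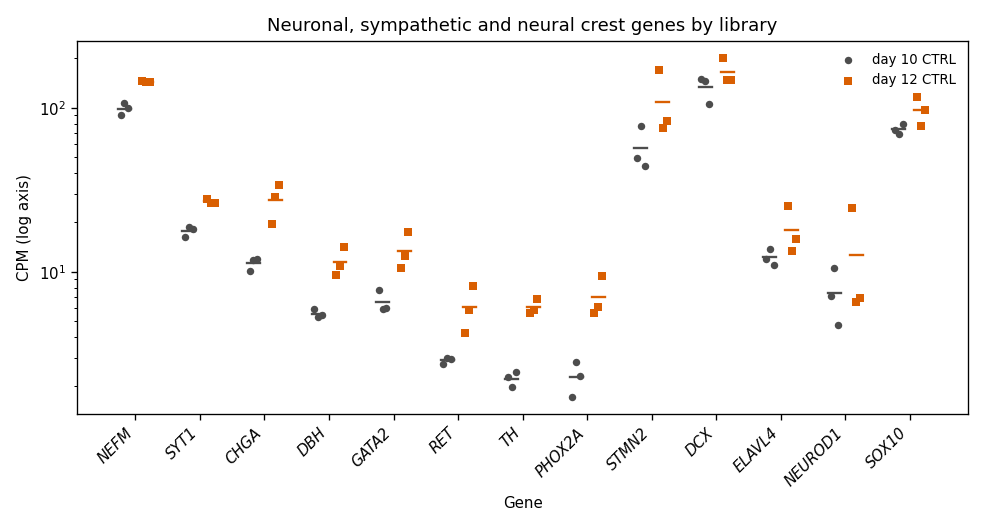
CPM (log axis) of 13 neuronal, sympathetic and neural crest genes in each day 10 CTRL library (grey circles) and each day 12 CTRL library (orange squares), with bars for the means. The groups are separate in the 8 genes from NEFM to PHOX2A, whereas STMN2, DCX, ELAVL4 and NEUROD1 have 1 high library, day 12 CTRL replicate 1.

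Of 29 genes of synaptic and axonal adhesion, 12 were called, all of them higher, where 1.55% of all genes were called higher. The median was 0.46. This list was also made after the values were seen, so that its count depends on that choice and cannot be ranked against other lists. CNTN1, an immunoglobulin adhesion protein of axons, had 6.23, 6.32 and 5.73 CPM on day 10 and 12.99, 10.7 and 12.7 CPM on day 12 (0.99 ± 0.12, adjusted p = 0.00122). Further calls included NRXN2, CNTN3, CNTNAP5, SLITRK2, SLITRK5, NTM, LSAMP, IGLON5, LRRC4B and LRRC4C, with changes between 0.33 and 2.09. Over the fits that leave out 1 library, between 5 and 16 of the 29 were called higher, 16 of them without day 12 CTRL replicate 1.

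All 15 neural progenitor genes and all 13 neural crest and glial genes had a positive sign, with medians of 0.42 and 0.36, and 2 of each list rose. Over all genes tested, 51.2% had a positive sign. Without day 12 CTRL replicate 1 the medians were 0.323 and 0.213. In the first list FABP7, a lipid binding protein of radial glia, and DLX1 rose. They were called in 2 and 3 of the 6 fits that leave out 1 library. In the second, SNAI2, a factor of crest emigration, had 22.1, 24.3 and 22.8 CPM on day 10 and 31.4, 31.8 and 31.1 CPM on day 12 (0.44 ± 0.07, adjusted p = 0.00783). TFAP2A, a crest specifier, went from 21.8, 21.97 and 21.1 CPM to 28.4, 26.6 and 28.7 CPM (0.36 ± 0.08, adjusted p = 0.0256). SNAI2 was called in all 6 and TFAP2A in 1 of the 6 fits that leave out 1 library. Over these fits, between 0 and 5 neural progenitor genes and between 1 and 3 crest and glial genes were called higher. SOX10, a factor of crest and Schwann cells, had 73.5, 69.2 and 80.2 CPM on day 10 and 116, 77.1 and 96.5 CPM on day 12, and was not called.

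Several genes of the extracellular matrix rose, from abundant collagens to small regulators. Of 26 collagen chains listed and tested, 4 rose, none fell, 22 had a positive sign, and the median was 0.20. COL6A3, of beaded filaments, had 220.1, 195 and 197 CPM on day 10 and 305, 303 and 269.5 CPM on day 12 (0.52 ± 0.07, adjusted p = 0.00259). COL5A2, which sets the width of collagen fibrils, went from 799, 816 and 812 CPM to 1009, 1024 and 1025 CPM (0.33 ± 0.06, adjusted p = 0.00783). COL1A2, of type I collagen, went from 3392, 3317 and 3296 CPM to 4107, 4091 and 3901 CPM (0.27 ± 0.06, adjusted p = 0.0295). The call of COL1A2 was kept in 7 of the 13 alternatives. COL9A3, of type IX collagen, rose by 0.38. Outside the list, COL9A1 and COL16A1 were called higher too, by 0.66 and 0.50, and were picked after their values were seen. The summed level of the collagen list was between 25539 and 27011 CPM on day 10 and between 29832 and 30491 CPM on day 12. Without day 12 CTRL replicate 1, 10 collagen chains were called higher and 1 lower.

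Among proteoglycans, BGN, the small leucine-rich biglycan, went from 52.8, 56.9 and 52.7 CPM to 80.7, 75.8 and 87.5 CPM (0.58 ± 0.07, adjusted p = 0.00107). Of 28 other matrix genes, SPARCL1, MFAP4 and LAMA2 rose, and the median was 0.30. Without day 12 CTRL replicate 1, 7 of them and 4 proteoglycans were called higher, and with other libraries left out as few as 1 of each list. SPARCL1, a counterpart of SPARC, had 1.81, 1.60 and 1.56 CPM on day 10 and 5.12, 5.11 and 5.00 CPM on day 12 (1.61 ± 0.17, adjusted p = 0.00051). SPARC had between 3304 and 3352 CPM on day 10 and between 3150 and 3444 CPM on day 12, so that the groups overlapped (log2 fold change -0.0032). MFAP4, of elastic microfibrils, went from 83.3, 72.7 and 62.5 CPM to 108, 110.6 and 109 CPM (0.58 ± 0.09, adjusted p = 0.00705). FN1, which encodes fibronectin, was not called and its groups overlapped, with 1061, 703 and 1712 CPM on day 10 and 911, 2339 and 2373 CPM on day 12. CDH11, the cadherin of mesenchymal cells, went from 81.1, 78.8 and 80.5 CPM to 109, 109 and 115 CPM (0.47 ± 0.06, adjusted p = 0.00118).

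Ligands and their modulators changed in several pathways. In the TGF-β, activin and BMP list, 5 of 29 genes rose, none fell, and the median was 0.11. The counts were 9 higher and 1 lower without day 12 CTRL replicate 1, and as few as 1 was called higher with another library left out. TGFBI, a secreted protein named for its induction by TGF-β, had 604, 592 and 570 CPM on day 10 and 750, 811 and 809 CPM on day 12 (0.42 ± 0.06, adjusted p = 0.00335). The ligands BMP7 and TGFB3 rose by 0.41 and 0.50, the binding protein LTBP2 by 0.48 and the BMP antagonist CHRDL1 by 0.65, each called in 2 or 3 of the 6 fits that leave out 1 library. In the WNT list, 3 of 36 genes rose, and the median was 0.14. The count was 8 without day 12 CTRL replicate 1 and as low as 0 with another library left out. The 3 were RSPO2 and RSPO3, which strengthen WNT signals at the receptor, and DKK1, which blocks them, called in 2, 1 and 2 of the 6 fits that leave out 1 library. Outside the list, and picked after their values were seen, the ligands WNT7A and WNT3A were called higher by 1.77 and 0.46. RSPO3 had 26.1, 23.1 and 26.7 CPM on day 10 and 32.4, 45.7 and 46.7 CPM on day 12 (0.71 ± 0.14, adjusted p = 0.0392). DKK1 had 8.54, 6.76 and 7.10 CPM on day 10 and 10.6, 11.9 and 12.5 CPM on day 12 (0.63 ± 0.12, adjusted p = 0.0186). Of 19 Notch genes, the ligand JAG1 rose, from 51.7, 51.6 and 54.0 CPM to 78.6, 68.1 and 70.4 CPM (0.46 ± 0.07, adjusted p = 0.00365). IGFBP3, which carries insulin-like growth factors, went from 394, 377 and 381 CPM to 497, 511 and 481 CPM (0.37 ± 0.06, adjusted p = 0.0052). In the IGF list 4 of 10 genes, and in the Notch list 2, were called higher without day 12 CTRL replicate 1. Of 15 genes of retinoic acid synthesis, binding and response, ALDH1A2, the main enzyme of its synthesis in the embryo, rose from 37.5, 36.3 and 30.1 CPM to 53.5, 46.3 and 48.4 CPM (0.51 ± 0.09, adjusted p = 0.0111). Without day 12 CTRL replicate 1, 2 genes of this list were called higher. Over the fits that leave out 1 library, the count was between 0 and 3.

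A few markers of the gonad and its surface rose. Of 14 tested transcription factors of the bipotential gonad, LHX9 and GATA2 rose, none fell, and the median was -0.016. LHX9, needed for growth of the gonadal ridge, had 1.97, 1.78 and 2.23 CPM on day 10 and 3.27, 6.34 and 7.45 CPM on day 12 (1.5 ± 0.28, adjusted p = 0.0252). The day 12 levels were spread widely, and the call was kept in 1 of the 6 fits that leave out 1 library. WT1 and GATA4 were not called (log2 fold changes -0.10 and -0.19). Of 19 tested genes of the coelomic epithelium and mesothelium, UPK3B, PDPN, ALDH1A2 and PKHD1L1 rose, none fell, and the median was 0.070, or 0.236 without day 12 CTRL replicate 1. PDPN was called in none of the 6 fits that leave out 1 library, and with some libraries left out none of the list was. UPK3B, a uroplakin of mesothelium, had 19.3, 22.6 and 14.5 CPM on day 10 and 33.6, 33.2 and 28.6 CPM on day 12, but its adjusted p of 0.0495 was at the threshold and the call was kept in 5 of the 13 alternatives. KRT19 lay between 529 and 672 CPM on day 10 and between 459 and 578 CPM on day 12. None of the 16 tested granulosa and 7 Sertoli lineage genes was called in either direction, where 2.03% of all genes were called. At that share, lists of this size hold few calls or none. Without day 12 CTRL replicate 1, 1 granulosa gene was called lower. CYP19A1 had at most 23 counts, TSPAN8 at most 6 and DHH at most 20. Other markers of these lineages had higher levels. AMHR2 lay between 22.4 and 29.2 CPM, SOX9 between 14.8 and 20.3, AMH between 11.3 and 15.5 and FSHR between 0.644 and 1.41. Of 11 interstitial genes, MAF rose from 38.3, 42.0 and 43.3 CPM to 54.5, 55.8 and 49.9 CPM. Without day 12 CTRL replicate 1, 1 gene of the interstitial list was called higher and 1 lower. The podocyte gene NPHS1 went from 1.18, 1.37 and 1.46 CPM to 2.52, 2.44 and 3.46 CPM (1.06 ± 0.22, adjusted p = 0.0230), and overlaps APLP1 on the opposite strand. Its call was kept in 7 of the 13 alternatives.

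Complement and interferon genes held a few rises. Of 16 complement genes, listed after the values were seen, 3 rose, and 6 were called higher without day 12 CTRL replicate 1. CFI, the protease that inactivates C3b, had 3.21, 4.57 and 4.15 CPM on day 10 and 12.3, 12.8 and 12.5 CPM on day 12, with day 12 libraries that were nearly equal (1.65 ± 0.14, adjusted p = 0.000134). The C1 inhibitor SERPING1 rose by 0.32. Of 23 interferon response and MHC class I genes tested, IFI6 and HLA-E rose by 0.56 and 0.34, and 21 had a positive sign. The calls were kept in 3 and 2 of the 6 fits that leave out 1 library. The count of the list was 8 without day 12 CTRL replicate 1 and as low as 0 with another library left out. The mitochondrially encoded MT-ATP8, the single call among 13 such genes, rose by 0.47 while the median of these genes was -0.046. It shares bases with MT-ATP6.

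Of the 44 lists, 14 held no gene called by edgeR, with 207 tested members, where 2.03% of all genes were called. Of the 14, 10 held a call without day 12 CTRL replicate 1, and DESeq2 called 4 hypoxia genes higher and 1 lower. They included lists of other cell types and programmes, such as pluripotency, smooth muscle, endothelium, endoderm, Hedgehog, YAP targets, sterol synthesis, hypoxia, p53 targets, immediate early genes and HOX genes. For the 13 endothelial genes the sign was negative in 11, with a median of -0.27. CD34, which endothelial cells also express, was not on that list. KDR had 73.5, 82.1 and 66.2 CPM on day 10 and 72.7, 55.3 and 49.9 CPM on day 12. The blood cell gene PTPRC had no count in 5 libraries and 2 counts in the sixth. The medians of 5 lists changed sign without day 12 CTRL replicate 1. That of the HOX genes went from 0.26 to -0.15 and that of the endoderm genes from -0.033 to 0.284, while those of the gonadal factors, Hedgehog and smooth muscle lists went from just below 0 to 0.0547, 0.0345 and 0.0679.

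The days before and after place the genes on their course. These steps share the day 10 or the day 12 libraries with the comparison above. CFI had a mean of 0.688 CPM on day 8, 3.98 on day 10, 12.5 on day 12 and 23.6 on day 14. PTGS1 and HIC1 followed the same order, with 48.2 and 30.1 CPM on day 14. TH had 0.478 CPM on day 8 and 7.15 CPM on day 14. SLC7A11 was highest on day 8, at 113 CPM, and had 60.3, 37.0 and 21.1 CPM on days 10, 12 and 14. PSAT1 had 248 CPM on day 8 and 134 CPM on day 14. MCM3 had 532 CPM on day 4, 226 on day 8, 178 on day 10, 146 on day 12 and 154 on day 14. HAND1 and MEOX1 were lower on each later day from day 6 on. COL6A3 had 651 CPM on day 4, 185 on day 8 and 295 on day 14, close to its day 12 mean of 293 CPM.

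**Figure D3:**
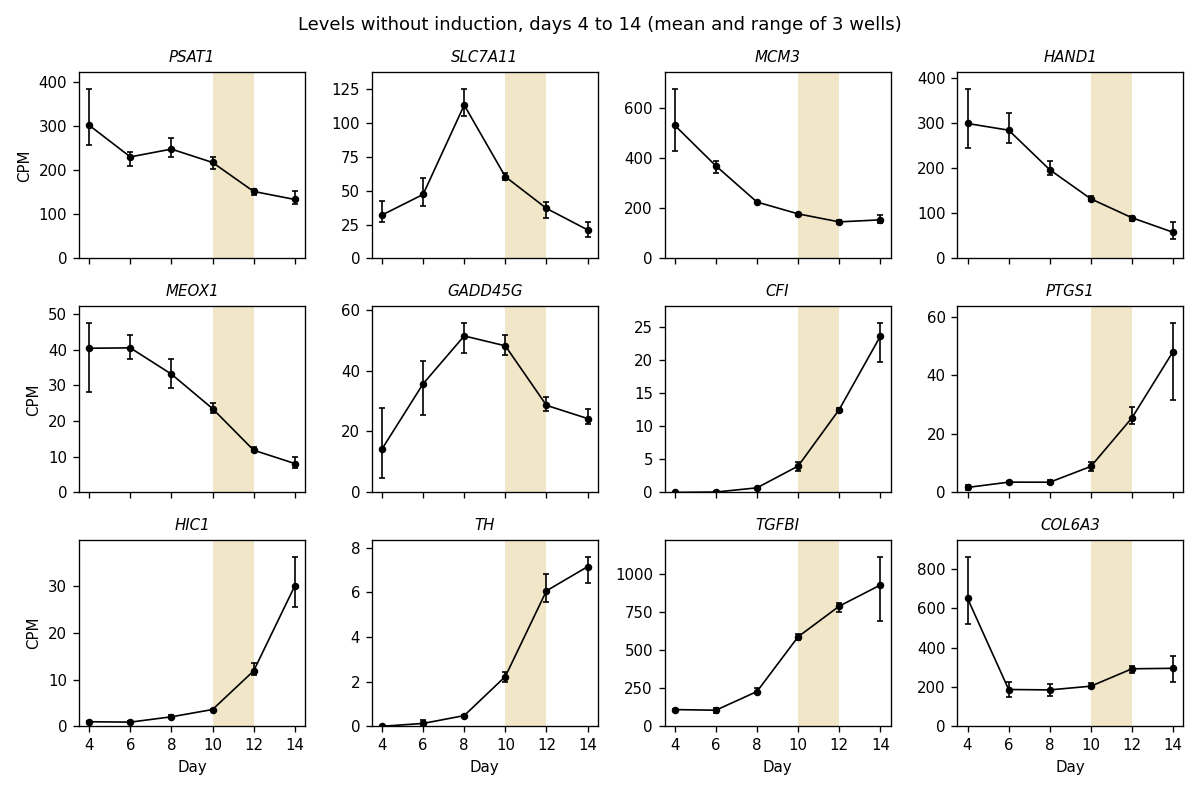
Mean CPM of 12 genes in the libraries without induction on days 4 to 14 (3 wells each), with bars from the lowest to the highest well and the step from day 10 to day 12 shaded. CFI, PTGS1 and HIC1 are still higher on day 14, whereas SLC7A11 has its highest level on day 8 and MCM3 on day 4.

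Whether a step differed from its neighbour was tested with edgeR on the 12 libraries of days 8 to 14. The change from day 10 to 12 minus that from day 8 to 10 was called for 1 of 20801 genes (0.00481%), with 1278 genes at an unadjusted p under 0.05. This gene was EPB42, a protein of the membrane skeleton first known from red cells. It had means of 0.195 CPM on day 8, 2.77 on day 10, 4.69 on day 12 and 6.11 on day 14, so that the log2 step was 3.82 at first and then 0.75 (difference -3.06 ± 0.39, adjusted p = 0.0124). The change from day 12 to 14 minus that from day 10 to 12 was called for 0 of 20801 genes (0%), with 967 at an unadjusted p under 0.05. The count of the first test was between 0 and 9 with 1 library left out, 0 without day 10 CTRL replicate 1 or 2 and 9 without day 8 CTRL replicate 2, and it was 211 with no filter on low counts. No other tool was run on these differences. A gene that misses the threshold is not shown to keep its pace. For HIC1 the difference between the first pair of steps was 0.90 ± 0.27 and for ALDH1A2 0.93 ± 0.19, with adjusted p of 0.486 and 0.155.

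The IND libraries of days 10 and 12, which the comparison did not use, gave the same genes in separate wells that received DOX and TMP. Values in IND depended on 1 library, day 10 IND replicate 2, with which the log2 fold change of GADD45G was -0.89 and without which it was 0.037. They are given without it. Of the 307 genes called higher in CTRL and tested there, 276 (89.9%) had a positive sign in IND, where 51.4% of all genes tested in CTRL did. Their median was 0.427 in IND and 0.612 in CTRL. Of the 96 called lower, 71 (74%) had a negative sign, against 48.6% of all genes, and the median was -0.105 in IND and -0.347 in CTRL. With that library kept, these shares were 84.6% and 65.6%.

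Single genes ranged from like to unlike values in both conditions. The log2 fold change of CFI was 1.65 in CTRL and 2.44 in IND, that of SPARCL1 1.61 and 1.87, and that of MEOX1 -0.99 and -0.73. It was -0.71 and -0.92 for SLC7A11, but -0.52 and -0.086 for PSAT1, -0.76 and 0.037 for GADD45G and 1.48 and -0.34 for TMOD1. In IND alone, without day 10 IND replicate 2, CFI, SPARCL1 and TMOD1 did not pass the threshold. Their adjusted p by edgeR was 0.206, 0.580 and 0.944 there. The difference between CTRL and IND was tested with edgeR over the 12 libraries and called for 0 of 21096 genes (0%), with 670 genes at an unadjusted p under 0.05. Without day 10 IND replicate 2 it was also 0, of 21767 genes, with 998 at an unadjusted p under 0.05. The largest of the differences just named was that of TMOD1, at 1.81 ± 0.25 without that library (adjusted p = 0.152), and that of PSAT1 was -0.45 ± 0.13 (adjusted p = 0.912). The test over all 12 libraries lacked the power to call changes of 2-fold, so that its count carries no information on whether genes changed alike in both conditions. On simulated data, the test without day 10 IND replicate 2 recovered part of such changes and missed others. Its count of 0 therefore does not show that genes changed alike. No other tool was run on this difference.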

How the data were processed

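Poly(A) RNA of wells from 1 differentiation was sequenced as paired-end reads without strand information. The authors had the reads trimmed with fastp 0.23.2, mapped to GRCh38 with HISAT2 2.0.5 and counted per gene with featureCounts 1.5.0-p3, and deposited raw counts and FPKM, values per length and library size. Fold changes and p-values of the authors were not used. From the deposited counts, edgeR 4.0.16 in R 4.3.3 was run with filterByExpr, TMM and the robust quasi-likelihood test on the 6 libraries. Results are log2 fold changes with the standard error that the F statistic implies, and p adjusted with the Benjamini-Hochberg method over all genes tested at 0.05. CPM were scaled over all 33 libraries. Of the 13 alternatives, 6 left out a library each. The others used DESeq2 (1.42.0), size factors by RLE, all genes without a filter, only genes with a mean of 50 counts or more, 1 fit to the 33 libraries, limma-trend (3.58.1) after log2(FPKM + 1), and a block for the replicate number.

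The members and gene lists were chosen with earlier results of these data known, and 6 of the 44 lists after the values were seen. Genes are named as the 15 with the largest changes in each direction (protein coding, called, an average log2 CPM of at least 1, groups without overlap), up to 5 called genes of each list and direction by adjusted p, or the 2 of highest level where none was called, the cell type markers, FOXL2, and up to 5 calls of each difference. Others are named from the added lists or after their values were seen. Same-numbered libraries of both days deviated together with correlations of 0.101, -0.168 and 0.160, so they were not paired. The scripts were tested on simulated data. There, with a spread drawn per gene, the day 12 against day 10 test made more false calls than its threshold allows, and the test of CTRL minus IND over all 12 libraries recovered none of the known changes. The same test without day 10 IND replicate 2 recovered part of them. Promoter sequences are those of RefSeq. Some genes are not reported here.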

Additional observations from a re-analysis of the deposited data

Results flagged for a closer look

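EPB42 drew attention because 2 successive steps of it differed by a test of the difference itself. Its log2 change from day 10 to 12 minus that from day 8 to 10 was -3.06. The first step starts from a mean of 0.195 CPM on day 8, and the call was lost when day 10 CTRL replicate 1 or 2 was left out.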

How the results depend on the processing

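The number of genes called from day 10 to day 12 in CTRL, 404 with 308 higher and 96 lower, was 950 (637 and 313) with DESeq2 and 1334 (962 and 372) with no filter on low counts. It was 61 (46 and 15) with limma-trend on log2(FPKM + 1), and 6 (6 and 0) when all 33 libraries were fitted together with edgeR, where 227 lower genes had an unadjusted p under 0.05. Leaving out 1 library gave between 123 and 885 calls, between 100 and 649 higher and between 23 and 236 lower. The highest count was without day 12 CTRL replicate 1, and the others were 240, 154 and 304 without day 10 CTRL replicates 1, 2 and 3 and 176 and 123 without day 12 CTRL replicates 2 and 3. The cause was not tested. RLE size factors (399) and a mean of at least 50 counts (394) stayed within 1.5 times the count.

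All 404 genes kept their direction in each alternative, apart from the 18 that a mean of at least 50 counts left out. Of the 404, 390 remained called with DESeq2, 377 without day 12 CTRL replicate 1, and 116 without day 12 CTRL replicate 3. Of 1721 values of the 133 named genes under the alternatives, 327 lost the call, 17 gained it and none was a called value that changed sign. With the replicate block there were 472 calls, 366 higher and 106 lower. Same-numbered libraries of the days shared only a number, since their deviations correlated at 0.101, -0.168 and 0.160, and 2 of the 3 day 10 libraries correlated better with another number.

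The difference between the steps from day 10 to 12 and from day 8 to 10 (1 gene) was called for 211 genes with no filter, for 3 with the replicate block, and for between 0 and 9 with 1 library left out. Where it was 0 with edgeR, between 844 and 1249 genes had an unadjusted p under 0.05. That between the steps from day 12 to 14 and from day 10 to 12 (0) was called for 26 genes with no filter and for between 0 and 1 with 1 library left out, the 1 gene being SMN1, without day 12 CTRL replicate 3. SMN1 has a near-identical copy, SMN2. In the 10 alternatives with 0 calls by edgeR, between 466 and 1729 genes had an unadjusted p under 0.05. That between CTRL and IND was 0 by edgeR in all 15 alternatives run, with between 354 and 1789 genes at an unadjusted p under 0.05. Small changes of genes near the floor of 3 counts were not detectable at this depth.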
